A study of Saccharomyces cerevisiae with 4 samples.

Results

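Peroxisomes are small organelles bounded by a single membrane, and in budding yeast they hold the whole of fatty acid β-oxidation, which mitochondria carry out in many other organisms. The genes described here are the 41 genes of Saccharomyces cerevisiae named for building this organelle and for breaking down fatty acids inside it, out of 5897 genes in the expression table. They were chosen by name, and all 41 were found. They comprise 25 peroxins (PEX genes), 7 oxidation enzymes, 4 acyl-CoA synthetases (FAA genes), 3 transporters and the regulators OAF1 and PIP2.

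Fatty acids are activated to acyl-CoA by synthetases, enter the organelle through an ABC transporter, and are shortened by an oxidase, a bifunctional enzyme and a thiolase. Peroxins import those enzymes fully folded, insert the membrane proteins, and set the number and size of the organelles. The transcription factors Oaf1 and Pip2 bind together to oleate response elements upstream of many of these genes when cells are given oleate, and glucose is known to repress the same genes.

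The libraries came from the industrial strain CY, grown for 10 h with shaking in rich medium of yeast extract, peptone and glucose. In the non-stress group (2 libraries) the culture was at 30 °C with 2% glucose, and in the stress group (2 libraries) at 36 °C with 10% glucose, so temperature and sugar cannot be told apart. All cultures were of the same strain, and fatty acids were not named as an addition to the medium of either group. The labels do not say whether replicates were separate cultures, so the spread that the p-values rest on may be only technical.

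Levels are FPKM, fragments relative to gene length and to what was mapped in the library. The FPKM sums ran from 988848 to 1064993, and the estimated depth from 18100000 to 18600000 fragments. At that depth the lowest value of a member, 5.12 FPKM for DCI1, stood for about 74.5 fragments. In the R64 reference, none of the 41 genes shared an identical 50-base window of coding sequence with another gene, and 0 overlapped another gene of the table. Near-identical sequence and copies particular to strain CY were not examined. Genes that glucose is known to repress did not follow the labelled glucose: SUC2, invertase, was at 244 and 237 FPKM in non-stress and 10023 and 9975 in stress libraries, and ICL1, isocitrate lyase, at 15.7 and 17.1 against 1128 and 1136. ADH2, another such gene, went the other way, at 1531 and 1662 FPKM against 342 and 340. The part that sugar left in the medium had in the values below was not tested.

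The comparison asked how the transcripts of this organelle differed between the conditions. Most of them were higher under stress, all enzymes of β-oxidation and most of the import machinery among them, while one acyl-CoA synthetase, FAA4, and one peroxin, PEX31, fell by more than 2-fold. Of the 41 genes, 31 rose and 4 fell at a limma adjusted p under 0.05, whereas 39.8% of all 5784 genes tested rose and 47.9% fell. All 41 passed the filter on low values. A log2 change of at least 1 was reached by 11 genes (background 19.0%), and one of -1 or less by 2 genes (background 26.9%). The groups did not overlap for 38 of the 41, but this also held for 93.8% of all genes tested. The log2 changes are fitted on the scale of log2(FPKM + 1), stress minus non-stress, and their errors are SEs. The median was 0.70 for the 41 genes and -0.14 for all genes tested. In a bulk culture, a change in every cell and a change in a fraction of the cells cannot be told apart.

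**Figure D1:**
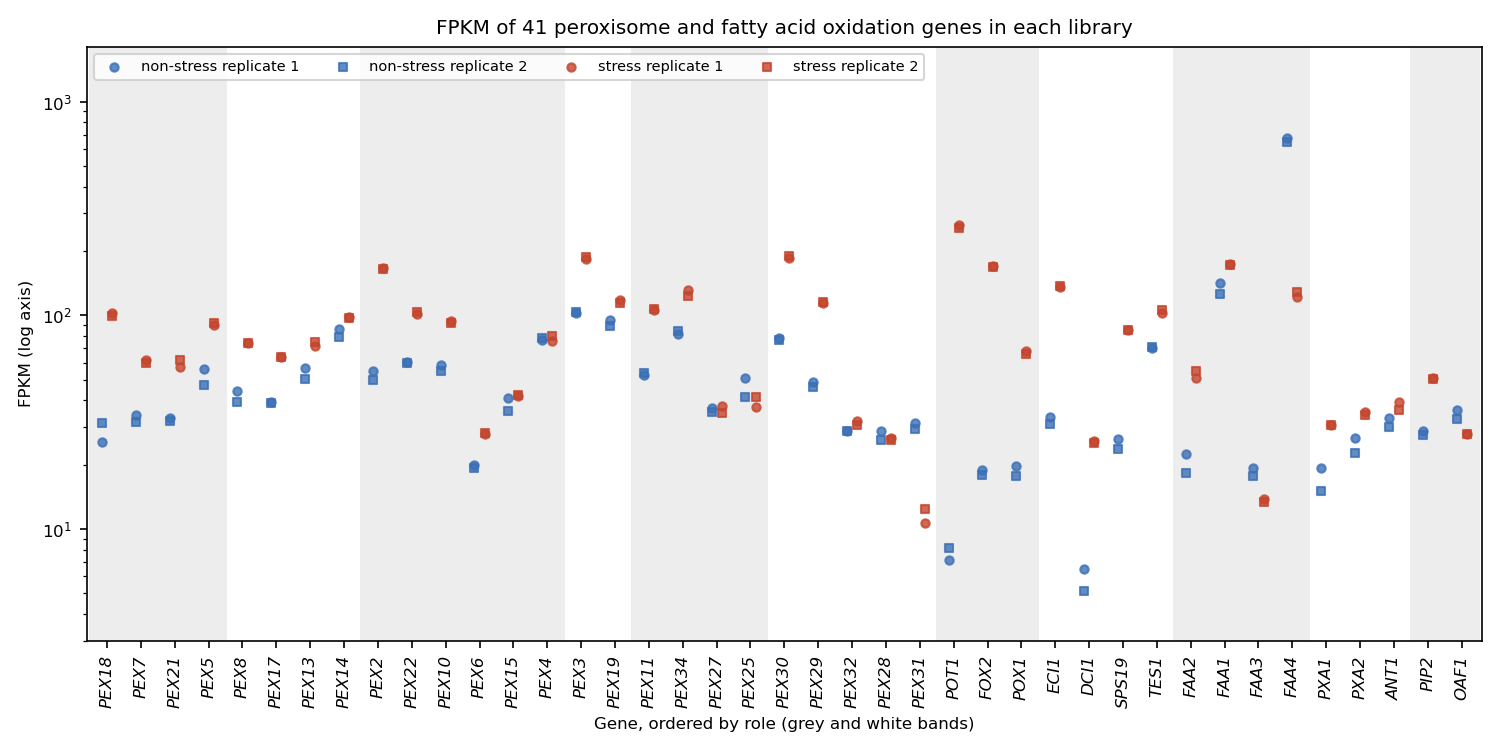
FPKM (log axis) of each of the 41 genes in each of the 4 libraries, with non-stress in blue and stress in red, circles for replicate 1 and squares for replicate 2, and bands marking roles. POT1 spans the widest distance between groups, from 7.14 and 8.13 to 264 and 257 FPKM, and FAA4 stands highest in non-stress libraries at 675 and 649.

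By class, the 7 oxidation enzymes all rose, with a median log2 change of 1.97. Of the 25 peroxins 18 rose, 1 fell and 6 did not pass, with a median of 0.70. All 3 transporters rose, the 4 synthetases divided evenly into 2 higher and 2 lower, and the 2 regulators moved in opposite directions. The summed FPKM of the oxidation enzymes went from 179 ± 5.42 to 847 ± 4.67 (SD, n = 2), a 4.75-fold rise, and that of the peroxins from 1291 ± 42.3 to 2112 ± 5.42, a 1.64-fold rise. The difference between the classes was not tested, since the genes of a class were listed with earlier results known.

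**Figure D2:**
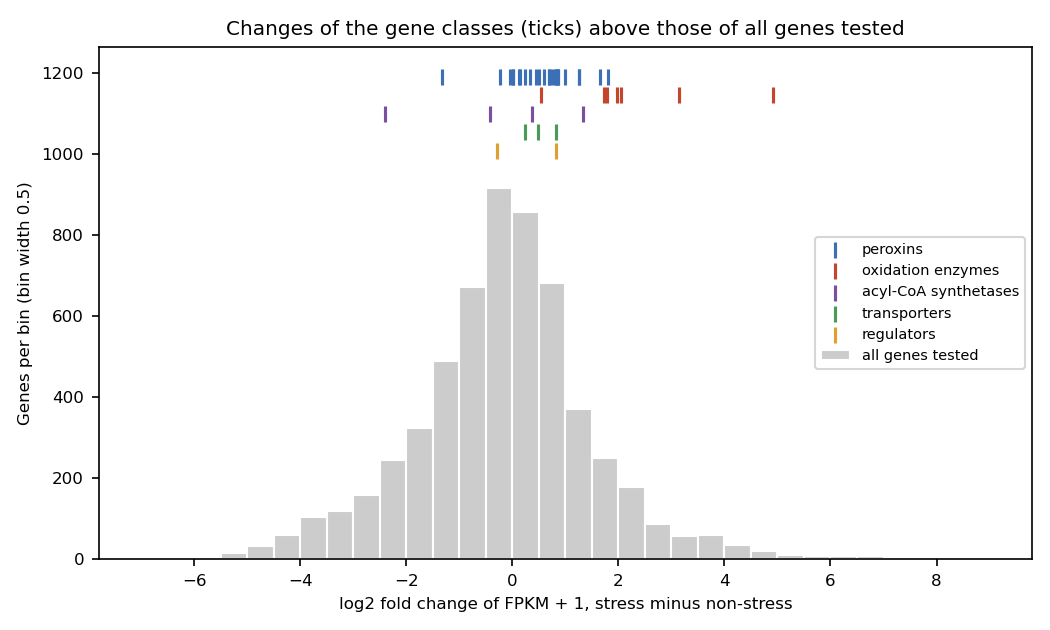
Histogram of the log2 change of all 5784 genes tested (grey bars, stress minus non-stress) with 1 tick above it for each gene of each class. The 7 oxidation enzymes (red ticks) lie between 0.55 and 4.92, and the 25 peroxins (blue ticks) between -1.32 and 1.80.

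The core of the pathway comprises 3 enzymes, which act in the order POX1, FOX2, POT1. POT1, the thiolase that cuts off acetyl-CoA in the last step, lies on chromosome IX (R64, 40191 to 41444, minus strand, a single coding exon). It was at 7.14 and 8.13 FPKM in non-stress libraries and at 264 and 257 in stress libraries. With a log2 change of 4.92 ± 0.073 (SE; limma adjusted p = 1.98e-11) it ranked 46 of 5784 genes by rise, and its level moved from the 7.77th to the 87.4th percentile of all genes.

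FOX2, the bifunctional hydratase and dehydrogenase of the middle steps, on chromosome XI (454352 to 457054, minus strand), was at 18.9 and 17.9 FPKM against 170 and 169. The difference was 3.14 ± 0.061 on the log2 scale (limma adjusted p = 9.01e-11). POX1, the acyl-CoA oxidase of the first step, on chromosome VII (108158 to 110404, plus strand), was at 19.6 and 17.8 FPKM against 67.9 and 66.1, a log2 change of 1.79 ± 0.074 (limma adjusted p = 1.42e-08). The replicates lay close together and far from the other group for all 3 genes, and the later an enzyme acts, the higher its rise.

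Unequal rises reordered the levels of these enzymes, which FPKM allows to be compared per length. In non-stress libraries POT1 was the lowest, at 0.36 and 0.46 times the FPKM of POX1. In stress libraries it was the highest, at 3.89 times POX1 in both. FOX2 was at 0.96 and 1.01 times POX1 in non-stress and 2.50 and 2.55 times in stress libraries.

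Auxiliary enzymes that prepare unsaturated chains or release the product also rose. ECI1, the enoyl-CoA isomerase that moves double bonds, was at 33.4 and 31.1 FPKM in non-stress and 135 and 136 in stress libraries, a 4.21-fold rise. SPS19, the dienoyl-CoA reductase, was at 26.5 and 23.7 against 85.3 and 85.1 FPKM, a 3.40-fold rise. DCI1, annotated as a dienoyl-CoA isomerase, was at 6.50 and 5.12 against 25.9 and 25.2 FPKM.

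The DCI1 difference was 1.97 ± 0.12 (SE) on the log2 scale, and its non-stress level was the lowest of the 41 genes. Although ECI1 and DCI1 stood 5.14-fold and 6.07-fold apart in non-stress libraries, they kept nearly that distance under stress, at 5.22-fold and 5.41-fold. TES1, the thioesterase that releases free fatty acid from its CoA ester, rose by the least of the 7 enzymes. It averaged 70.7 ± 0.523 FPKM without stress against 104 ± 1.87 with it (SD, n = 2), with a log2 change of 0.55 ± 0.054 (limma adjusted p = 9.04e-06).

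**Figure D3:**
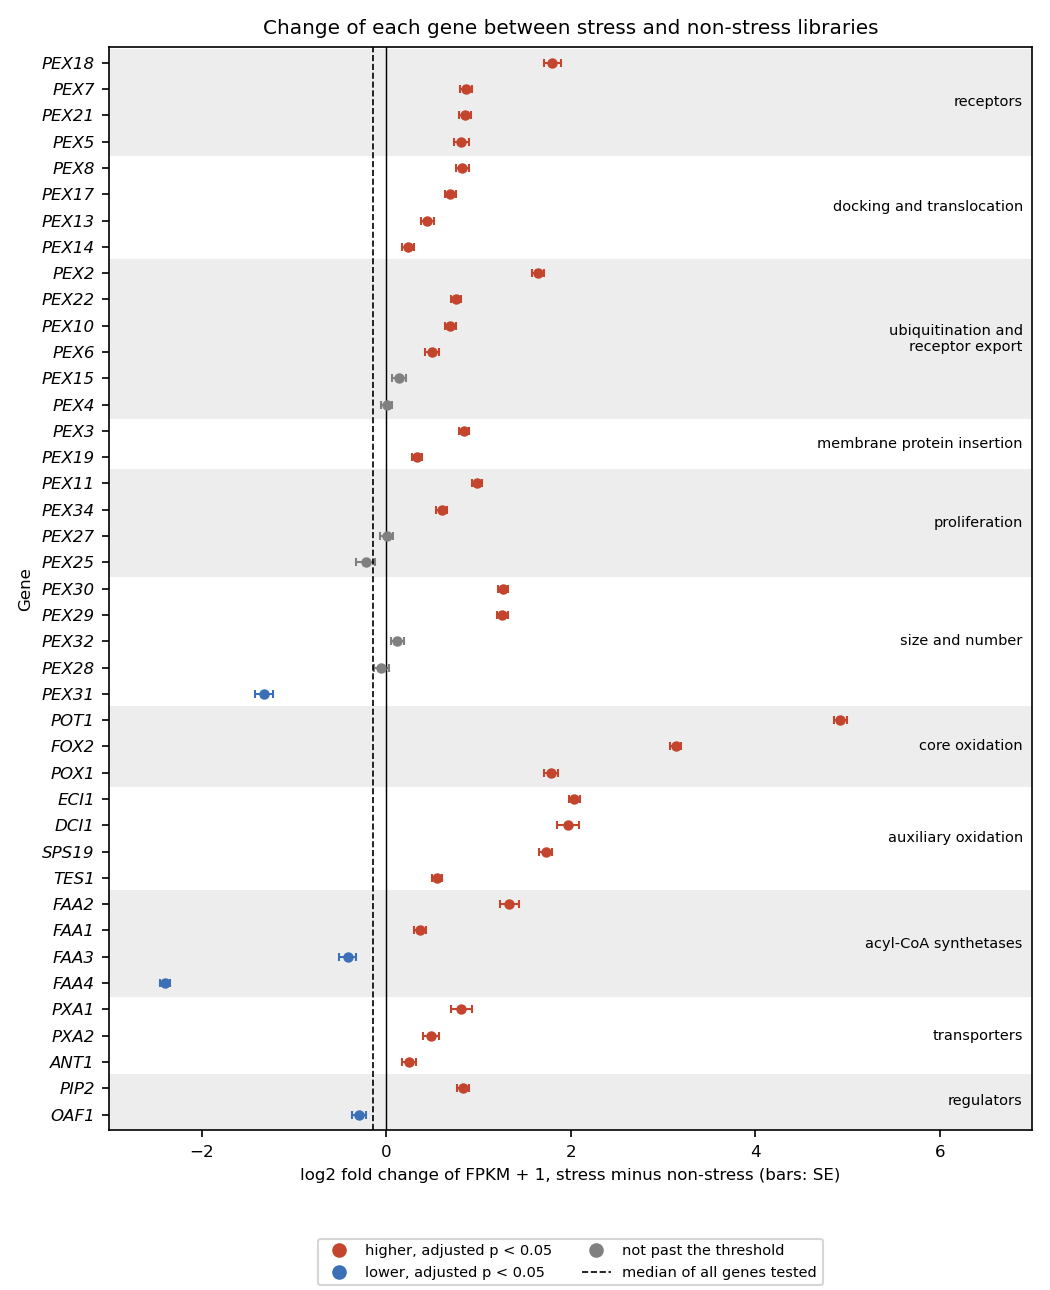
Log2 fold change of each of the 41 genes (points, stress minus non-stress, on log2(FPKM + 1)) with its SE (bars), ordered by role; red and blue mark genes higher and lower at an adjusted p under 0.05, and grey those that did not pass. The dashed line is the median of all genes tested, at -0.14, and POT1 (4.92) and FAA4 (-2.39) are the extremes.

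The promoters of these enzymes share a motif, the oleate response element. Such elements are already known upstream of many of these genes, so finding it here is not independent of the choice by name. The oleate response element was searched on both strands of the 500 bases before each start codon in the R64 reference genome of strain S288C, not in that of CY. In its loose form it is CGG, then 15 to 18 bases, then CCG. In a stricter form, contained in the loose one, it is CGGNNNTNA, then 9 to 12 bases, then CCG. The plan named only the loose form, and the stricter one was added to it. The stricter form was found upstream of all 7 oxidation enzymes and of 14 of the 41 genes (34.1%), against 112 of 5893 promoters (1.9%). The loose form was found upstream of 16 of the 41 (39.0%), against 8.76% of promoters.

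The stretches that hold the stricter element of the 7 enzymes are given here, to show how the bases between the outer triplets vary, with 1 example each from the synthetases (FAA2), the regulators (PIP2) and the peroxins (PEX11). Each is read 5′ to 3′ on the strand of its gene, with 15 bases on either side, and capitals mark the outer CGG and CCG; the TNA letters of the stricter form may be on either strand. FOX2 and POX1 carry 2 elements each.
POT1, chrIX:41595-41647, minus strand: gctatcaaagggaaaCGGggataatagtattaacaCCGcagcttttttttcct
FOX2 far, chrXI:457322-457373, minus strand: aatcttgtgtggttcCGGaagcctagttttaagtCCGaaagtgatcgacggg
FOX2 near, chrXI:457290-457340, minus strand: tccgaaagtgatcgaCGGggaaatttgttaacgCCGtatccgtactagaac
POX1 far, chrVII:107831-107883, plus strand: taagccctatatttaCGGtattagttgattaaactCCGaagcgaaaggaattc
POX1 near, chrVII:107868-107920, plus strand: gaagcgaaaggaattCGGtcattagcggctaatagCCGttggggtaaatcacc
ECI1, chrXII:707176-707228, minus strand: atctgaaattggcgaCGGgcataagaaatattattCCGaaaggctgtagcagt
DCI1, chrXV:675271-675324, minus strand: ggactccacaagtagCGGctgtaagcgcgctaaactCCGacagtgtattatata
SPS19, chrXIV:259397-259450, plus strand: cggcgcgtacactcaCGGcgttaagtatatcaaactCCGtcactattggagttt
TES1, chrX:468374-468426, minus strand: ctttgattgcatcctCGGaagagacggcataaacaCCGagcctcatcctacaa
FAA2, chrV:184340-184392, plus strand: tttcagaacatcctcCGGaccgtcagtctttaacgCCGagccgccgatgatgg
PIP2, chrXV:1023333-1023383, minus strand: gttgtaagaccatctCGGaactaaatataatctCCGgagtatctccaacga
PEX11, chrXV:48741-48793, minus strand: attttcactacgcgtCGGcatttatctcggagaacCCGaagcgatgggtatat

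The 14 genes with the stricter element were the 7 enzymes, FAA2, PXA2, PIP2, PEX5, PEX6, PEX11 and PEX13, and all 14 rose, by log2 changes of 0.45 to 4.92 with a median of 1.16. Of the 27 members without it, 17 rose and 4 fell, with a median of 0.37. Among peroxins alone, the 4 with the element had a median of 0.66 and the 21 without it a median of 0.70. The 2 members with the loose form alone, OAF1 and PEX25, had log2 changes of -0.29 and -0.22. Outside the 41 genes, 97 genes tested carry the stricter element, of which 45 rose (46.4%) and 44 fell (45.4%), with a median of 0.11, against 39.8%, 47.9% and -0.14 for all genes tested. A match to letters is not evidence of binding.

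Some elements lie in a promoter shared with a divergent neighbour. The window before SPS18 holds the SPS19 element, and SPS18 fell from 17.9 and 19.5 to 5.92 and 4.89 FPKM while SPS19 rose. Likewise POT1 has BNR1 on its other side, which encodes a formin and was at 7.41 and 5.73 FPKM in non-stress and 3.19 and 3.74 in stress libraries. In all, 7 neighbours had a member's stricter element within their own 500 bases. Of these, 5 fell (BNR1, NNT1, PRP28, PSF3 and SPS18) and CHC1 rose by 0.17 on the log2 scale. BUD25 did not pass (-0.18), and its value is uncertain, since most of its sequence windows are also in HEM14. Among all genes tested, 47.9% fell and 39.8% rose, and whether the neighbours differ from those shares was not tested. With the element in their own windows, these neighbours also belong to the genes other than members that carry it, described above.

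A core of the binding site of Adr1, an activator of glucose-repressed genes, was also searched (TTGGAG, both strands). It was found upstream of 15 of the 41 genes (36.6%), against 18.8% of promoters. All 4 synthetase genes carry it, whichever way they moved, and so do POT1, FOX2, ECI1 and SPS19 among the enzymes and PIP2. Of the 25 peroxins 6 carry it (24.0%), namely PEX6 and PEX11, which rose, and PEX4, PEX15, PEX27 and PEX28, which did not pass. None of the 3 transporters has it.

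**Figure D4:**
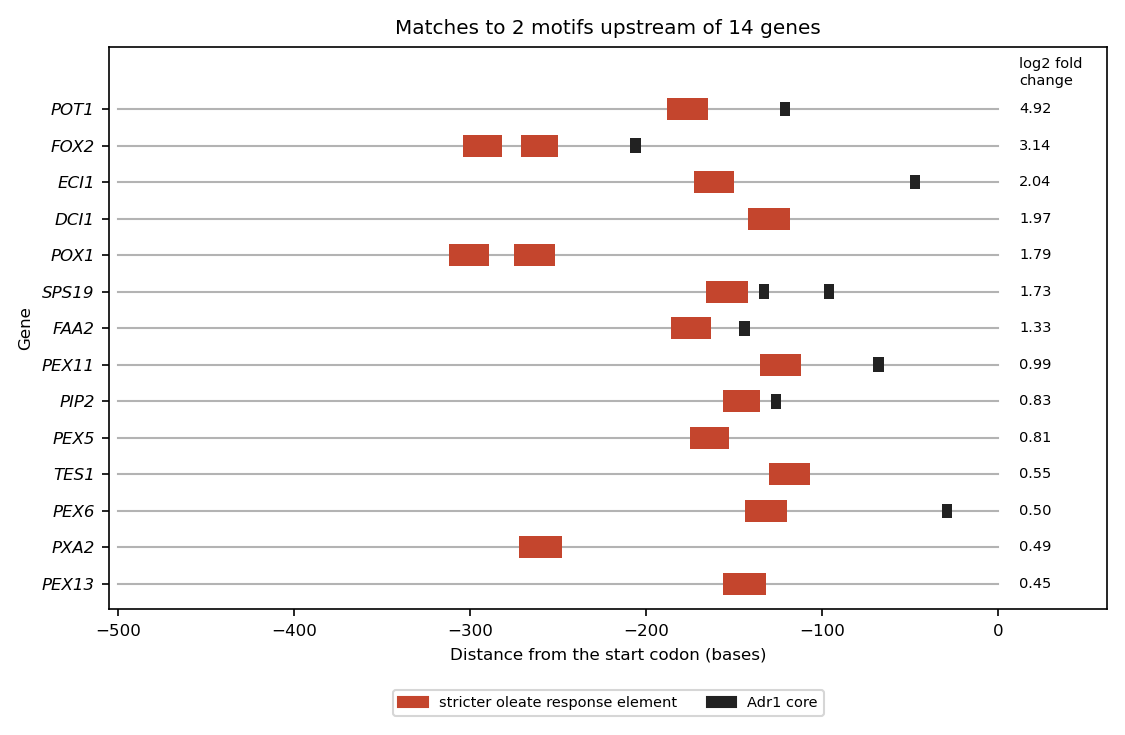
Positions of the stricter oleate response element (red boxes) and of the Adr1 core (black boxes) in the 500 bases before the start codon (x axis, bases) of the 14 genes that carry the former, ordered from the highest to the lowest log2 change (printed at the right). All elements lie between -312 and -108 bases.

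At the other end of the genes, the codons before the stop were compared with the type 1 targeting signal, a C-terminal tripeptide read by Pex5. The tripeptides searched were serine, alanine or cysteine, then lysine, arginine or histidine, then leucine or methionine. Only 3 of the 41 coding sequences end in one (7.32%), against 29 of 5894 in all (0.492%). The last 30 bases of each are given with the codons of the signal in capitals, all 3 reading serine, lysine, leucine.
FOX2, chrXI:454352-454381, minus strand: aaactatcgcaggcaaaaTCTAAACTAtaa
SPS19, chrXIV:260427-260456, plus strand: ttaataaagagtatgacaTCTAAATTAtaa
PEX8, chrVII:637744-637773, minus strand: gtcttatcaagtcaatctTCTAAATTAtag
Other members may carry variants that were not searched, or are imported by other routes, as the thiolase is through Pex7.

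Acyl-CoA synthetases, which attach CoA to free fatty acids, changed in composition. FAA4, on chromosome XIII (759807 to 761891, plus strand), was the highest of the 41 genes in non-stress libraries, at 675 and 649 FPKM, and was at 122 and 128 in stress libraries. It was 5.29-fold lower under stress, with a log2 change of -2.39 ± 0.052 (SE; limma adjusted p = 1.88e-10). FAA1, which with FAA4 activates most imported fatty acid, was at 142 and 126 FPKM against 174 and 171, a log2 change of 0.37 ± 0.064 (limma adjusted p = 4.90e-04).

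The order of these genes therefore switched: FAA4 stood at 4.77 and 5.14 times FAA1 in non-stress libraries and at 0.70 and 0.75 times in stress libraries. FAA2, the peroxisomal synthetase of medium-chain fatty acids, was at 22.5 and 18.2 FPKM against 50.7 and 54.6, a 2.59-fold rise. FAA3, a synthetase of low abundance, was at 19.4 and 17.7 FPKM against 13.8 and 13.4; it fell by 0.42 ± 0.091 on the log2 scale (limma adjusted p = 0.00194), but the difference was 0.072 and did not pass after quantile normalization. Summed over the 4 genes, the level went from 835 ± 33.8 to 364 ± 5.40 FPKM (SD, n = 2).

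**Figure D5:**
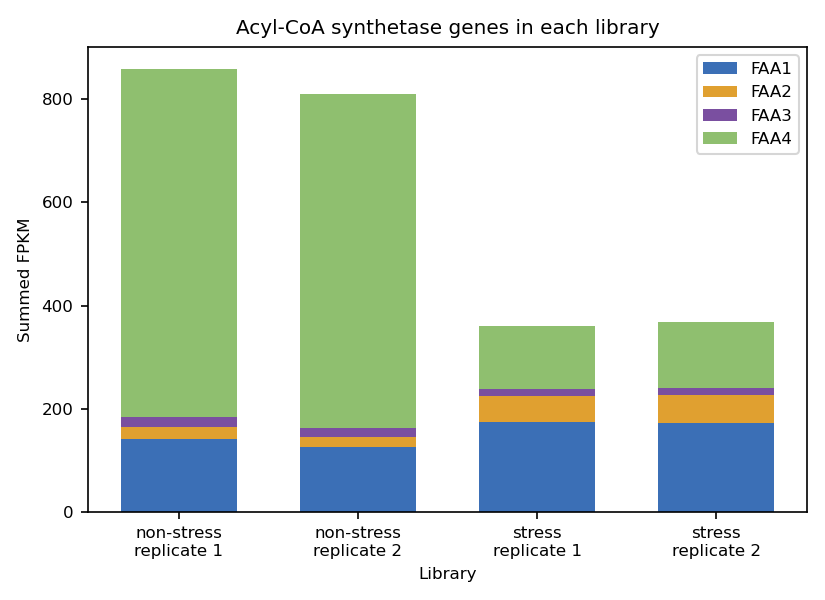
FPKM of the 4 acyl-CoA synthetase genes stacked for each library, with bars starting at 0. FAA4 accounts for 675 and 649 FPKM of the non-stress bars and for 122 and 128 of the stress bars, while the other 3 genes together are higher under stress.

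All 3 transporters of the peroxisomal membrane rose. PXA1 and PXA2, the subunits of the ABC transporter of long-chain acyl-CoA, went from 17.2 ± 2.99 to 30.7 ± 0.0354 and from 24.6 ± 2.81 to 34.8 ± 0.948 FPKM (SD, n = 2). Their log2 changes were 0.82 ± 0.11 and 0.49 ± 0.089 (SE; limma adjusted p = 8.90e-05 and 6.55e-04). ANT1, the carrier that brings ATP into the organelle, went from 31.5 ± 2.09 to 37.6 ± 2.38 FPKM (log2 change 0.25 ± 0.079, limma adjusted p = 0.0159). The ANT1 call was lost without non-stress replicate 2 (adjusted p = 0.0827), without stress replicate 1 (0.183) and after rescaling to equal FPKM sums (0.101).

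The regulators had changes of opposite sign. PIP2, whose promoter holds the stricter oleate response element where that of OAF1 holds the loose form, was at 28.8 and 27.4 FPKM in non-stress and 51.0 and 50.6 in stress libraries, a log2 change of 0.83 ± 0.066 (SE; limma adjusted p = 1.86e-06). OAF1, its partner and the subunit that binds fatty acids, was at 36.1 and 32.7 FPKM against 28.0 and 27.8. OAF1 fell by 0.29 ± 0.076 on the log2 scale (limma adjusted p = 0.00523), a call that was lost after quantile normalization (adjusted p = 0.869) and after median centring (0.132). OAF1 was thus at 1.25 and 1.19 times the FPKM of PIP2 in non-stress libraries and at 0.55 times in both stress libraries.

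Peroxins of the import pathway were mostly higher. All 4 receptor genes among the 41 rose, their summed FPKM going from 146 ± 4.49 to 313 ± 1.01 (SD, n = 2). PEX18, a co-receptor that helps Pex7 import cargo such as the thiolase, was at 25.6 and 31.4 FPKM against 103 and 99.7, a log2 change of 1.80 ± 0.092 (limma adjusted p = 6.76e-08). It showed the highest rise of the 25 peroxins, and moved from 0.78 and 0.99 times its copy PEX21 to 1.79 and 1.62 times. PEX21, PEX7 (the receptor of type 2 signals) and PEX5 (the receptor of type 1 signals) rose by similar amounts, 1.84-fold, 1.84-fold and 1.77-fold.

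Genes for docking on the membrane rose as well. PEX8, PEX17, PEX13 and PEX14 had log2 changes of 0.82, 0.70, 0.45 and 0.24, all past the threshold. PEX14, the main docking protein, was already at 82.7 ± 5.20 FPKM and reached 97.6 ± 1.22 (SD, n = 2). Its call was lost after rescaling to equal FPKM sums (limma adjusted p = 0.0565).

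Receptors are recycled after ubiquitination, and 4 of the 6 genes for this step and for export passed as higher. PEX2, a RING ubiquitin ligase, was at 54.8 and 49.95 FPKM against 167 and 165, a log2 change of 1.65 ± 0.062 (limma adjusted p = 7.07e-09). PEX10, another RING ligase, rose 1.63-fold and PEX22, the anchor of the conjugating enzyme, 1.70-fold. PEX4, that conjugating enzyme, was at 77.5 ± 1.58 and 77.8 ± 3.46 FPKM (SD, n = 2), and its groups overlapped; it passed as higher after median centring (limma adjusted p = 0.0154).

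For export, PEX6, an ATPase that pulls receptors out of the membrane, rose 1.43-fold, and PEX15, its anchor, had a log2 change of 0.14 ± 0.079 and did not pass. PEX15 did pass as higher after quantile normalization (limma adjusted p = 0.00107), after median centring (0.00114) and without non-stress replicate 1 (0.0136). PEX3 and PEX19, which insert membrane proteins, rose 1.80-fold and 1.26-fold.

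Among genes that divide the organelle, PEX11, the main proliferation factor, averaged 52.9 ± 0.665 FPKM without stress against 106 ± 0.679 with it (SD, n = 2). Its log2 change was 0.99 ± 0.055 (limma adjusted p = 1.33e-07). PEX34 rose 1.53-fold. The relatives of PEX11 did not pass: PEX27 had a log2 change of 0.01 ± 0.071 and PEX25 one of -0.22 ± 0.10 (limma adjusted p = 0.934 and 0.0620). Their calls turned on the setting: PEX27 passed as higher after quantile normalization (limma adjusted p = 0.00529) and median centring (0.0173). PEX25 passed as lower with equal FPKM sums (limma adjusted p = 0.0094), with the replicate block (0.0147) and without non-stress replicate 2 (0.0111). PEX11 stood at 1.42 and 1.52 times PEX27 in non-stress and 2.82 and 3.04 times in stress libraries.

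Genes that limit size and number went in both directions. PEX30, a reticulon-like protein of the endoplasmic reticulum where peroxisomes form, was at 78.7 and 76.4 FPKM against 186 and 190, a log2 change of 1.27 ± 0.052 (limma adjusted p = 1.48e-08). PEX31, its relative, was at 31.2 and 29.2 FPKM against 10.7 and 12.3, and fell by 1.32 ± 0.095 (limma adjusted p = 8.64e-07). The ratio of PEX30 to PEX31 was 2.52 and 2.62 in non-stress and 17.4 and 15.4 in stress libraries.

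PEX29 was at 48.6 and 46.3 FPKM against 114 and 116, a 2.42-fold rise, whereas PEX28, which acts with it, had a log2 change of -0.05 ± 0.079. PEX32 had one of 0.12 ± 0.070, and neither PEX28 nor PEX32 passed. After quantile normalization both passed as higher (limma adjusted p = 0.004 and 6.23e-04), as did PEX32 after median centring (0.0016). Of the 5 genes of this set 2 were higher, 1 was lower and 2 did not pass.

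Of 36 other genes of the organelle, listed by role, 20 rose (55.6%) and 12 fell (33.3%), with a median log2 change of 0.35. Over all genes tested 39.8% rose and 47.9% fell, with a median of -0.14. The highest rises were those of CAT2, the carnitine acetyltransferase that lets acetyl units leave (18.4 and 17.5 FPKM against 758 and 739), FIS1, a fission adaptor shared with mitochondria (51.7 and 56.8 against 741 and 727), and CTA1, the peroxisomal catalase (20.9 and 22.3 against 247 and 247). The deepest falls were those of PXP2, a peroxisomal matrix protein (log2 change -2.37), CAF4, a fission adaptor (-1.14), and STR3, a cystathionine β-lyase (-1.13). Among 16 matrix proteins 11 rose and 5 fell, and among the 5 fission genes 3 rose and 1 fell. Of 4 genes of inheritance and turnover 3 rose and 0 fell. The remaining roles did not mostly rise: of 4 other peroxins 1 rose and 1 fell, and of 5 other regulators 2 rose and 3 fell. Both genes of fatty acid uptake and binding fell. CTA1, MDH3 and IDP3 were the 3 of these 36 genes with the stricter oleate response element, and each rose.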

How the data were processed

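Polyadenylated RNA was sequenced as DNA nanoballs, per the labels' protocols. The authors deposited 1 table of FPKM values, as named in the file headers, with 2 decimals. Build R64 and the tools RSEM 1.2.8, HISAT2 2.1.0 and Bowtie2 2.2.5 are named, without roles, in the submitters' processing notes; read filters are not given in the sources used here. Coordinates of all 41 genes equalled those of the R64 reference. Of the other genes linked to the organelle, 1 was matched by locus tag through RefSeq, and some are not reported by name here.

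Stress was compared with non-stress by limma 3.58.1 in R 4.3.3 (eBayes with trend, two-sided) on log2(FPKM + 1), over the 5784 genes with at least 1 FPKM in at least 2 libraries. P-values were Benjamini-Hochberg adjusted over all of them, with a threshold of 0.05. There were 2 residual and 6.51 prior degrees of freedom. Plain folds are ratios of mean FPKM, and fitted changes understate those of low genes. FPKM is a share of each library, so a fall of abundant transcripts raises all others.

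Low FPKM values of short genes lie on steps of 1 fragment, which gave the depth. Of 44 to 57 such values per library, 77.8% to 88.6% lay within 0.1 of a whole fragment at the depth chosen. The depth and a length offset were chosen to make this share highest, so the share is not a check on them. Replicates differed by more than sampling noise, with a median chi-square per gene of 2.30 (non-stress) and 0.82 (stress) against 0.455 from sampling alone, so none were merged. Same-numbered libraries did not deviate together (r = -0.005 across genes).

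Genes and lists were chosen with earlier results of these data known. Values per library are given for genes past the threshold with an absolute log2 fold change of at least 1, for the regulators and for the synthetases; of other genes, the 3 highest rises and 3 deepest falls are named, and MDH3, IDP3 and the divergent neighbours were named after their values were seen. Alternatives were quantile normalization, equal FPKM sums, median centring, a pseudocount of 0.1, a replicate block, a minimum FPKM of 5, no filter, each library left out and a threshold of 0.01. Python 3.11.15 was used for tables and figures.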

Additional observations from a re-analysis of the deposited data

How the results depend on the processing

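Under the alternatives other than the threshold, 31 of the 41 genes kept both direction and call, and 10 did not. At a threshold of 0.01, 34 of the 41 passed. Between 29 and 35 genes rose, and 17 to 22 peroxins (18 as reported), with 22 after quantile normalization and after median centring. The background moved in the same direction. Of all 5784 genes tested, 2300 rose as reported, 2692 after quantile normalization, 2658 after median centring and 2138 with equal FPKM sums. The count that fell, 4 as reported, was 2 after quantile normalization, 3 after median centring, and 5 with equal FPKM sums and with the replicate block. Of all genes tested, 2771 fell as reported, 2381 after quantile normalization, 2447 after median centring and 2933 with equal FPKM sums. The count of peroxins that fell, 1 as reported (PEX31), was 2 with equal FPKM sums and with the replicate block, where PEX25 also passed. The block changed no other call among these genes, and numbers did not pair the libraries. The median log2 change of the 41 genes (0.70) was 0.85 after quantile normalization, 0.61 with equal sums, 0.89 after median centring, and 0.65 to 0.74 with a library left out. That of peroxins (0.70) was 0.89 after median centring, and that of oxidation enzymes (1.97) was 2.18 after quantile normalization, 2.16 after median centring, 2.07 with a pseudocount of 0.1, and 1.82 to 2.09 with a library left out. The median of all genes tested was -0.14 as reported, 0.09 after quantile normalization and 0.05 after median centring, so small changes depend on the scaling.

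Genes near 0 changed sign. PEX4 was at -0.080 with equal sums and ran from -0.039 to 0.051 with a library left out. PEX27 was at -0.079 with equal sums and ran from -0.042 to 0.054. PEX28 was at 0.280 after quantile normalization, where it passed as higher (limma adjusted p = 0.004), and 0.137 after median centring, and ran from -0.124 to 0.019. After quantile normalization PEX25 was at 0.004 and FAA3 at 0.072. PEX15, PEX27 and PEX32 passed as higher after both quantile normalization and median centring, and PEX4 after median centring. The median SE of the 41 genes was 0.070, and 2 libraries in each group limit what smaller changes can show.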

Other observations

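The table's own pathway annotation, chosen after the values were seen, gives a wider view. Of 45 genes it places in the KEGG peroxisome pathway, 23 are not among the 41 genes, and 18 of these rose and 3 fell, with a median log2 change of 1.61 against -0.14 for all genes tested. Their summed FPKM went from 1720 ± 38.3 to 15223 ± 323 (SD, n = 2). Their log2 changes ran from -1.12 to 8.08, so this 8.85-fold sum can rest on a few genes and does not describe a typical one. Whether each of these genes acts in the organelle was not checked. Of 26 genes it places in fatty acid degradation, a pathway that also holds alcohol and aldehyde dehydrogenases, 19 are not among the 41; 6 of these rose and 12 fell, with a median of -1.14. Of the 26 tested genes outside the 41 whose coding sequence ends in the type 1 targeting signal, 15 rose (57.7%) and 11 fell (42.3%), with a median of 0.61. Over all genes tested 39.8% rose and 47.9% fell.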
